A study of Rattus norvegicus with 10 samples.

Results

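The miRNAs described here are those whose names begin with miR-378, miR-193 or miR-365, 3 small families tied to fat and energy metabolism. Their rows were picked by name from the count files of 10 rat libraries, and the families themselves were selected when results of these data were already known. Of the 723 mature miRNAs listed, 7 carried such a name, and the 6 with at least 1 cpm, a count scaled to a common library total, in at least 5 libraries are described, out of 359 miRNAs that passed the same filter. They are rno-miR-378a-3p, rno-miR-378a-5p, rno-miR-378b, rno-miR-193-3p, rno-miR-193-5p and rno-miR-365-3p, where the prefix stands for the rat and is left out below. The seventh, miR-365-5p, had between 0 and 4 counts in each library.

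The study explored whether the effects of mechanical stimulation (MS) under the skin of arthritic rats reach distant sites with time, and the tissue around the stimulated points was one of several sampled. All animals were female Wistar rats with collagen-induced arthritis (CIA), raised by immunization with bovine type II collagen in Freund's adjuvant, and all were shaved. The groups were CIA before any therapy (CIA_B), 1 h and 34 days of MS by needle puncture and twirling (MS_E and MS_A), and 1 h and 34 days of placebo by peritoneal injection of sterile saline (PLA_E and PLA_A). Each group had 2 libraries, and no group without arthritis was among them. Placebo differed from MS in the kind of intervention, in its site and in its schedule, weekly against every other day. Animals were killed at each time, so no animal was followed over time. The sources give no age, and nothing states whether the 2 libraries of a group came from separate animals, so the p-values measure the spread between libraries, which may be technical. The labels name sub-epidermal muscle as the tissue, the methods of the study name subcutaneous tissue with its muscle, and the series design also mentions blood.

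Each miRNA hairpin can give a 5p and a 3p strand, and bases 2 to 8 of the mature strand, the seed, lead it to its target messages. The hairpin of miR-378a lies in Ppargc1b, the gene of PGC-1β, a coactivator of mitochondrial and lipid metabolism genes, and both of its strands have been linked to mitochondrial energy metabolism. The miR-193 and miR-365 families are encoded as neighbours and have been linked to the differentiation of brown adipocytes, the fat cells that burn lipid for heat. Skeletal muscle is rich in miR-1, miR-133 and miR-206, which serve here as markers of muscle.

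The mature sequences of RefSeq (build GRCr8) are shown since the seed sets what each strand can bind and since near-identical copies limit what a count means. They are written 5′ to 3′ with the seed in capitals.

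miR-378a-3p: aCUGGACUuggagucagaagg

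miR-378a-5p: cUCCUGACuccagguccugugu

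miR-193-3p: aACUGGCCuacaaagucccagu

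miR-193-5p: uGGGUCUUugcgggcaagauga

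miR-365-3p: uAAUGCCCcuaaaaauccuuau

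miR-193b-3p: aACUGGCCcacaaaguccc

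RefSeq names the miR-193 strands of the files miR-193a, and 6 of the 7 names matched its mature sequences. No sequence is shown for miR-378b. The 5 covered strands shown had 5 different seeds. The sixth sequence, miR-193b-3p, has no row in the files, yet it shares the seed of miR-193-3p and differs from it over its 19 bases only by U9C, counted from the 5′ end of miR-193-3p. Reads of miR-193b-3p could thus have been counted as miR-193-3p, and how reads were shared between miR-378a-3p and miR-378b was likewise not tested. In GRCr8 the miR-378a-3p strand lies at chr18:57128925-57128945 on the minus strand, inside the span of Ppargc1b and in its direction of transcription. The miR-193-3p strand lies at chr10:65170370-65170391 and the miR-365-3p strand at chr10:65184271-65184292, both on the plus strand, and 13814 bases separate their hairpins. The reads had been aligned to an older build, rn4, from which no coordinate is given here.

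Between 1513799 and 8926170 reads fell on miRNAs in a library, and the 6 members took 5.50% of all of them. The smallest library was CIA_B replicate 1, where 3 counts amount to 2.60 cpm, and the next smallest had 3050255 reads. In MS_E replicate 1 a single miRNA, miR-10b-5p, took 51.8% of the reads, against 10.0% to 37.2% elsewhere. This library also held 9693 counts of miR-34c-5p, 6414 of miR-871-3p and 4976 of miR-202-5p, against at most 75, 2 and 1 in any other. The source of these reads was not tested. The summed leukocyte markers reached 14586 cpm in PLA_A replicate 1 and lay between 1638 and 3402 cpm in the other 9 libraries. Muscle markers were abundant in every library, but in each group 1 library had far more miR-1-3p than the other. These were CIA_B replicate 1, MS_E replicate 2, PLA_E replicate 1, MS_A replicate 2 and PLA_A replicate 1, with 80416 to 122986 cpm against 10117 to 15567 cpm, and miR-206-3p split the libraries in the same way. The TMM factors by which levels are scaled also leaned with this split, at 0.763 to 1.41 in these libraries and 0.675 to 1.06 in the others. Values scaled by library total alone are therefore given beside several of the statements that they change, and orders of group means refer to TMM scaling. The ranges of miR-133a-3p overlapped, at 70519 to 128738 cpm and 67933 to 139388 cpm. The liver marker miR-122-5p was at or below 1.54 cpm throughout, and the summed erythroid markers lay between 17.4 and 88.6 cpm.

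Among the members miR-378a-3p was by far the most abundant, and miR-193-5p the least. By counts, which were not divided by length, miR-378a-3p ranked between 4 and 9 among all miRNAs of a library and took 2.34% to 8.88% of its reads. The median levels over the 10 libraries were 47767 cpm for miR-378a-3p, 1186 cpm for miR-378b, 347 cpm for miR-378a-5p, 70.8 cpm for miR-365-3p, 7.81 cpm for miR-193-3p and 3.77 cpm for miR-193-5p. The highest library exceeded the lowest 2.15-fold for miR-365-3p, 2.65-fold for miR-378a-5p, 2.87-fold for miR-378a-3p, 3.44-fold for miR-378b and 4.20-fold for miR-193-5p, but 58.5-fold for miR-193-3p. Over the 337 tested miRNAs that were above 0 in every library, this ratio had a median of 3.99, and it was at least as large as that of miR-193-3p for 4 of them, itself included.

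**Figure D1:**
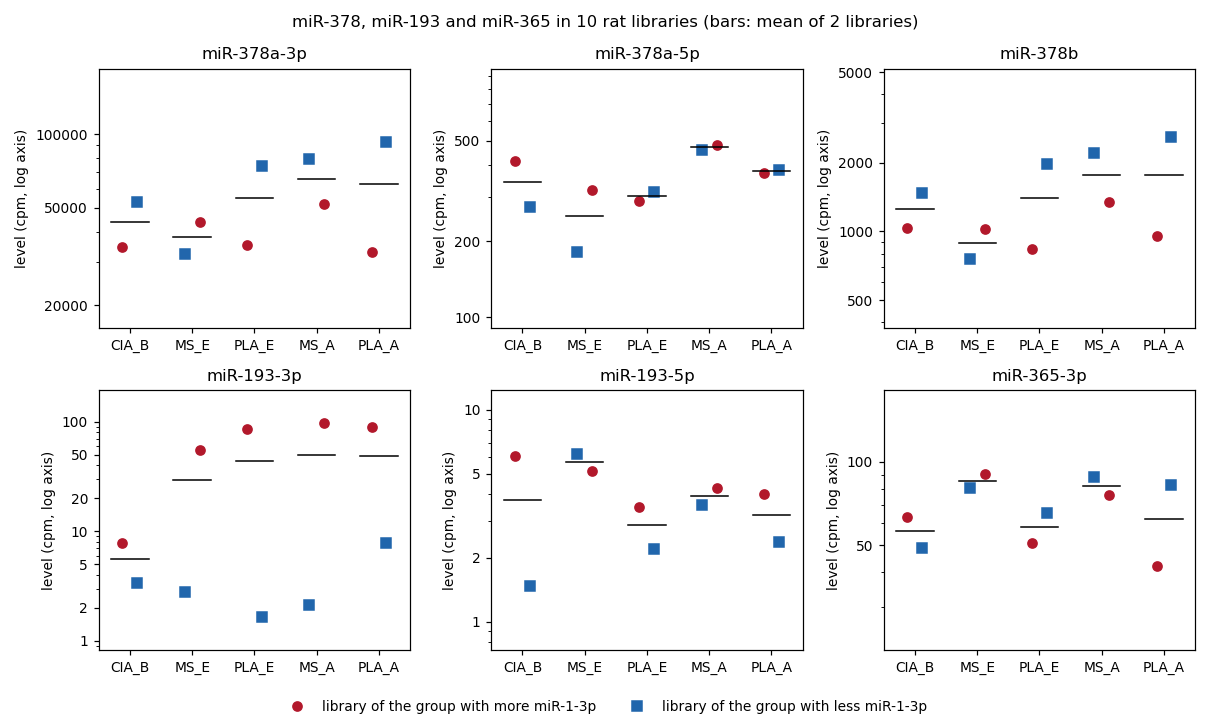
Levels of the 6 members in cpm (vertical log axes, whose ranges differ between panels) in the 5 groups on the horizontal axis. Points are single libraries, circles for the library of each group with more miR-1-3p and squares for the other, and bars are means of 2 libraries. The 2 libraries of a group lie far apart for miR-193-3p, which reaches 55.4 to 96.8 cpm in 4 libraries and 1.66 to 7.84 cpm in the other 6.

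Of the 2 strands of miR-193, the 3p strand was low in 6 libraries and well expressed in 4. It stood at 7.79 and 3.38 cpm in CIA_B replicates 1 and 2, at 2.78 and 55.4 cpm in MS_E, and at 85.1 and 1.66 cpm in PLA_E. In MS_A it stood at 2.14 and 96.8 cpm, and in PLA_A at 89.7 and 7.84 cpm. Thus 1 library of each group after therapy was high and the other low, and both libraries before therapy were low. The counts behind these levels were 9 and 23 in CIA_B, 6 to 43 in the low libraries after therapy and 355 to 794 in the high ones. Of the low values, those of CIA_B replicate 1 came from the smallest library.

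The 4 high libraries were, in each group after therapy, the library with more miR-1-3p. In all 5 groups miR-193-3p was higher in that library, as were 17.3% of the 358 tested miRNAs other than miR-1-3p (62 of them). The opposite, lower in that library in all 5 groups, was found for 14% of them and for 0 members, and 14.2% did not overlap between the 5 libraries with more and the 5 with less miR-1-3p, against 0 members. CIA_B replicate 1, which also had more miR-1-3p, held 7.79 cpm, so that the ranges of 7.79 to 96.8 cpm and 1.66 to 7.84 cpm met at their ends. The gap between the 2 libraries of a group averaged 3.65 on the scale of log2(cpm + 1), against a median of 0.68, and ranked 1 among the 359 tested miRNAs. By group it was 1.00 in CIA_B, 3.90 in MS_E, 5.02 in PLA_E, 4.96 in MS_A and 3.36 in PLA_A. The summed skeletal muscle markers other than miR-1-3p, taken without it after the data were seen because it defines the split, overlapped at 91429 to 145544 cpm in the libraries with more miR-1-3p and 72003 to 144430 cpm in the others. Most of that sum is miR-133a-3p, while miR-206-3p did not overlap, at 12034 to 16100 cpm against 1143 to 1868 cpm. The sum was higher in the library with more miR-1-3p in 3 of 5 groups, and in 5 of 5 with library totals alone. The fourth marker, miR-133b-3p, was higher in the library with more miR-1-3p in 5 of 5 groups, at 3849 to 5049 cpm against 2404 to 3899 cpm. Summed slow-fibre markers (94.5 to 1026 and 56.5 to 585 cpm), leukocyte markers (1648 to 14586 and 1638 to 3402 cpm) and epithelial markers (33.8 to 135 and 57.9 to 447 cpm) overlapped between these libraries. Of 4 lists of miRNAs tied to fat and energy metabolism, 2 had summed levels that were lower with more miR-1-3p and did not overlap. These were the list for white fat differentiation, at 75406 to 133969 cpm against 153317 to 205843 cpm, and that of miRNAs within metabolic genes, at 413 to 532 cpm against 553 to 785 cpm. By library total alone both overlapped, at 93873 to 137192 cpm against 113336 to 200264 cpm for white fat and 398 to 732 cpm against 402 to 764 cpm for metabolic genes, the latter lower with more miR-1-3p in only 3 of 5 groups. Sums of the 2 brown fat lists overlapped. A sum of levels mostly follows the most abundant miRNAs of its list, and none of these sums is read here as fat content. The part of muscle content in the level of miR-193-3p was not tested, and in such bulk tissue fewer cells of a type cannot be told apart from less of the RNA per cell.

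The group means of miR-193-3p ranked in the order CIA_B, MS_E, PLA_E, PLA_A and MS_A, but no neighbours in this order differed beyond their spread. They were 5.59 ± 3.12, 29.1 ± 37.2, 43.4 ± 59.0, 48.8 ± 57.9 and 49.5 ± 66.9 cpm (SD, n = 2). By library total alone the mean of MS_A (1.44 and 112 cpm) fell below those of PLA_E (120 and 1.61 cpm) and PLA_A (118 and 7.51 cpm). Against CIA_B the fitted log2 fold changes, from the quasi-likelihood test of edgeR, were 2.40 (SE 2.08) in MS_E, 2.97 (SE 2.12) in PLA_E, 3.16 (SE 2.14) in MS_A and 3.13 (SE 2.14) in PLA_A. The 4 comparisons share the CIA_B libraries. With the 4 groups after therapy averaged, the log2 fold change was 2.91 (SE 1.93), with an unadjusted p of 0.164 and an adjusted p of 0.974 in edgeR. Each of the 4 single comparisons leaned on 1 high library. Without it, the log2 fold change became -0.81 in MS_E, -1.46 in PLA_E, -1.19 in MS_A and 0.59 in PLA_A. The average after therapy was 1.8 without PLA_E replicate 1 and also without MS_A replicate 2. With a term for the library of each group with more miR-1-3p, that average was 1.22 (SE 0.78), and the 4 single values 0.79 in MS_E, 1.05 in PLA_E, 1.24 in MS_A and 1.82 in PLA_A. With limma-voom the average was 1.93, and MS_E, PLA_E and MS_A had 1.48, 1.76 and 1.97. When only the groups compared were fitted, miR-193-3p was past both thresholds that the study used, against CIA_B, in PLA_E (log2 fold change 3.02, unadjusted p of 0.0364 in edgeR) and PLA_A (3.05, unadjusted p of 0.00826 in edgeR). Those fits called 1.67% and 7.52% of the 359 tested miRNAs.

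The 5p strand of the same hairpin varied far less. Its levels were 6.06 and 1.47 cpm in CIA_B, 6.18 and 5.15 cpm in MS_E, 3.48 and 2.21 cpm in PLA_E, 3.56 and 4.27 cpm in MS_A, and 3.99 and 2.37 cpm in PLA_A, from 7 to 40 counts. All groups overlapped with CIA_B, and the highest mean, 5.66 ± 0.72 cpm (SD, n = 2), belonged to MS_E. In 4 of the 5 groups, all but MS_E, miR-193-5p was higher in the library with more miR-1-3p, at 3.48 to 6.06 cpm against 1.47 to 6.18 cpm. Scaled by library total alone it was higher there in all 5 groups (as were 23.2% of the other tested miRNAs) and without overlap (as were 11.7%), at 4.62 to 6.41 cpm against 1.57 to 4.48 cpm. The log2 fold change of miR-193-5p was 0.89 (SE 0.64) for MS_E against PLA_E (0.56 by library total alone), 0.59 (SE 0.45) for MS against PLA over both times (0.28 by library total alone) and 0.72 (SE 0.67) for MS_E against CIA_B. The last was 1.32 with limma-voom. It became 1.69 without CIA_B replicate 1, with an unadjusted p of 0.0421 in edgeR, and -0.09 without CIA_B replicate 2. The fit without replicate 1 called 5.01% of all tested miRNAs and left CIA_B with 1 library of 10 counts, which was assumed to vary like the other groups. Over the 10 libraries the Pearson correlation of the 2 strands on the scale of log2(cpm + 1) was 0.30, given as a description of libraries that differ in depth and in miR-1-3p.

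The ratio of the strands does not depend on how libraries are scaled. The counts of miR-193-3p divided by those of miR-193-5p gave 1.29 and 2.30 for the CIA_B libraries. MS_E had ratios of 0.45 and 10.8, PLA_E of 24.4 and 0.75, MS_A of 0.60 and 22.7, and PLA_A of 22.5 and 3.31. The 5p strand was thus the more abundant strand in 3 libraries and the 3p strand in 7. The highest ratio exceeded the lowest 54.3-fold, which ranked 1 among the 94 hairpins with both strands tested and counted in all libraries. The median over these hairpins was 4.41-fold. The low ratios rest on as few as 6 and 8 counts.

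Levels of miR-365-3p, encoded beside miR-193, moved within a narrow range and apart from miR-193-3p. They were 63.2 and 49.1 cpm in CIA_B, 80.3 and 90.4 cpm in MS_E, 51.1 and 65.4 cpm in PLA_E, 88.0 and 76.2 cpm in MS_A, and 42.1 and 82.8 cpm in PLA_A. Both MS_E libraries lay above both PLA_E and both CIA_B libraries, and both MS_A libraries above both CIA_B libraries. Such a pattern was found for 16.4% of the 359 tested miRNAs in MS_E against PLA_E, for 18.4% in MS_E against CIA_B and for 16.2% in MS_A against CIA_B. Scaled by library total alone, MS_E and PLA_E overlapped. The PLA_A libraries spanned nearly the whole range of the 10 libraries.

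By mean, the groups ranked CIA_B, PLA_E, PLA_A, MS_A and MS_E for miR-365-3p, with 56.2 ± 9.94, 58.2 ± 10.1, 62.4 ± 28.8, 82.1 ± 8.37 and 85.3 ± 7.16 cpm (SD, n = 2). Neighbours in this order did not differ beyond their spread, and by library total alone PLA_E and PLA_A changed places. The log2 fold change of miR-365-3p was 0.60 (SE 0.46) in MS_E and 0.55 (SE 0.46) in MS_A against CIA_B, 0.55 (SE 0.46) for MS_E against PLA_E, and 0.47 (SE 0.32) for MS against PLA over both times. The last had an unadjusted p of 0.178 and an adjusted p of 0.850 in edgeR. It was 0.30 without PLA_A replicate 1, 0.81 without PLA_A replicate 2 and 0.23 by library total alone, which also put MS_E against PLA_E at 0.33.

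Although the hairpins are neighbours, the ratio of miR-365-3p to miR-193-3p counts ranged from 0.469 to 41.2. It was 8.11 or lower in the 5 libraries with more miR-1-3p and 10.6 or higher in the other 5. The denominator, miR-193-3p, was itself higher in the library with more miR-1-3p in 5 of 5 groups. Of 94 hairpins, 24.5% also had a 3p to 5p ratio without overlap, and ratios of other pairs of hairpins were not counted. Against miR-193-5p, the ratio of miR-365-3p ranged only from 10.4 to 34.9. The Pearson correlation of miR-365-3p with miR-193-3p over the 10 libraries was -0.27.

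**Figure D2:**
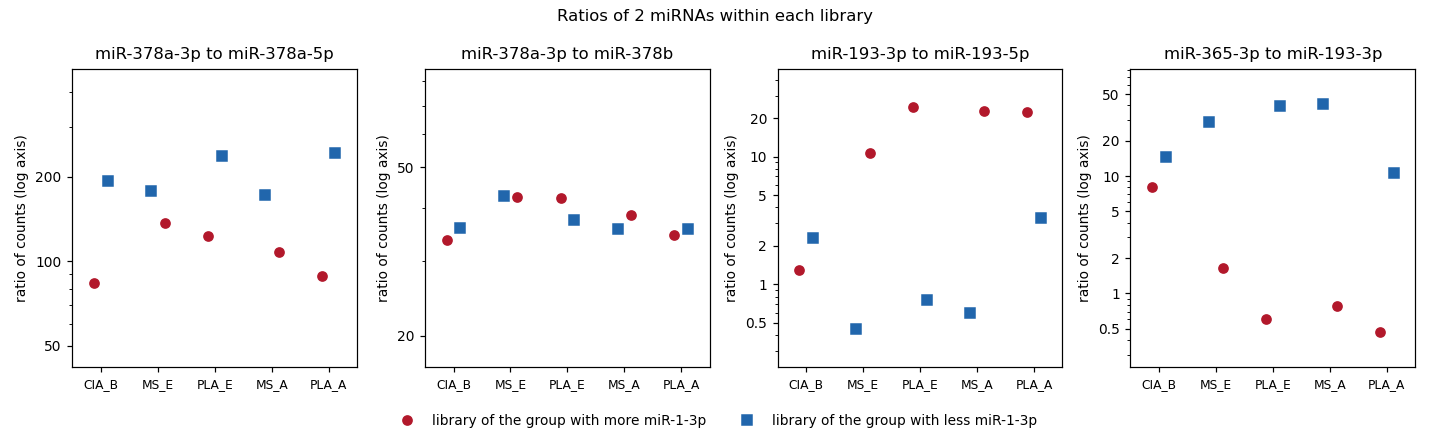
Ratios of the counts of 2 miRNAs within each library (vertical log axes) by group, with circles for the library of each group with more miR-1-3p and squares for the other. The ratio of miR-378a-3p to miR-378b stays between 33.7 and 42.9, while that of miR-193-3p to miR-193-5p runs from 0.45 to 24.4 and that of miR-365-3p to miR-193-3p from 0.469 to 41.2.

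The main strand of miR-378a was high in every library. Levels of miR-378a-3p were 34736 and 52983 cpm in CIA_B, 32309 and 43776 cpm in MS_E, 35425 and 74161 cpm in PLA_E, 78990 and 51758 cpm in MS_A, and 33061 and 92689 cpm in PLA_A. Both MS_A libraries exceeded both MS_E libraries, as for 16.7% of the tested miRNAs, whereas the libraries of PLA_A and PLA_E overlapped. Scaled by library total alone, MS_A (53315 and 60079 cpm) and MS_E (23443 and 54496 cpm) overlapped as well. In 4 of the 5 groups, all but MS_E, the library with less miR-1-3p had more miR-378a-3p, and in 3 of the 5 by library total alone. Group means ranked MS_E, CIA_B, PLA_E, PLA_A and MS_A, at 38042 ± 8108, 43859 ± 12902, 54793 ± 27391, 62875 ± 42163 and 65374 ± 19256 cpm (SD, n = 2), and no neighbours differed beyond their spread. By library total alone the mean of MS_A fell below those of PLA_E (50086 and 72151 cpm) and PLA_A (43513 and 88835 cpm). The log2 fold change of miR-378a-3p was 0.78 (SE 0.63) for MS_A against MS_E, and 0.47 without MS_A replicate 1. Over both arms, 34 days against 1 h gave 0.49 (SE 0.44), which became -0.04 without PLA_A replicate 2, 0.27 without PLA_E replicate 1, 0.75 without PLA_A replicate 1 and 0.79 without PLA_E replicate 2. It was 0.31 on miRNAs with a mean of at least 100 counts.

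Closely bound to it was miR-378b, named as a second member of the family. Its levels were 1032 and 1476 cpm in CIA_B, 754 and 1026 cpm in MS_E, 834 and 1980 cpm in PLA_E, 2212 and 1340 cpm in MS_A, and 953 and 2591 cpm in PLA_A. The ratio of miR-378a-3p to miR-378b counts ranged only from 33.7 to 42.9, and the Pearson correlation of both over the 10 libraries was 0.98. Whether reads of one were counted under the name of the other was not tested. By mean the groups ranked as for miR-378a-3p, with MS_A and PLA_A nearly equal, at 1776 ± 616 and 1772 ± 1158 cpm (SD, n = 2). By library total alone the mean of MS_A (1493 and 1556 cpm) fell below those of PLA_E (1180 and 1926 cpm) and PLA_A (1255 and 2483 cpm). The log2 fold change of miR-378b was 1.00 (SE 0.61) for MS_A against MS_E and 0.66 (SE 0.43) for 34 days against 1 h. The former was 0.62 without MS_A replicate 1, and the latter 0.15 without PLA_A replicate 2, 0.42 without PLA_E replicate 1 and 1.03 without PLA_E replicate 2. It was -0.66 (SE 0.60) for MS_E against PLA_E, 0.08 without PLA_E replicate 2 and -1.15 without PLA_E replicate 1.

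With TMM scaling only, the times were separated by the other strand of the hairpin, miR-378a-5p. Its levels were 414 and 274 cpm in CIA_B, 181 and 320 cpm in MS_E, 289 and 313 cpm in PLA_E, 461 and 482 cpm in MS_A, and 373 and 382 cpm in PLA_A. All 4 libraries of 34 days, at 373 to 482 cpm, lay above all 4 libraries of 1 h, at 181 to 320 cpm, which held for 1.39% of the 359 tested miRNAs (5 of them). Within the arms, both PLA_A libraries lay above both PLA_E libraries, as for 15.3% of the tested miRNAs, and both MS_A libraries above both MS_E libraries. Scaled by library total alone the times overlapped, at 311 to 559 cpm and 132 to 408 cpm, so the separation depends on the TMM scaling. The CIA_B libraries lay among those of both times. In 3 of 5 groups miR-378a-5p was higher in the library with more miR-1-3p. By library total alone it was higher there in 5 of 5, as were 23.2% of 358 tested miRNAs, at 316 to 559 cpm against 132 to 366 cpm.

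Means of miR-378a-5p ranked MS_E, PLA_E, CIA_B, PLA_A and MS_A, at 251 ± 98.1, 301 ± 17.2, 344 ± 98.9, 378 ± 6.31 and 471 ± 14.7 cpm (SD, n = 2). Only the last neighbours, PLA_A and MS_A, lay further apart than their spread, with a log2 fold change that was smaller than its SE in the fit. The share of tested miRNAs with such a gap was not counted. By library total alone PLA_A (491 and 366 cpm) and MS_A (311 and 559 cpm) overlapped, and CIA_B and PLA_E changed places. The log2 fold change of miR-378a-5p was 0.62 (SE 0.29) for 34 days against 1 h, with an unadjusted p of 0.0649 and an adjusted p of 0.801 in edgeR. For MS_A against MS_E it was 0.91 (SE 0.42), with an unadjusted p of 0.0575 and an adjusted p of 0.906 in edgeR, and limma-voom put its unadjusted p under 0.05. With 1 library left out it lay between 0.61 and 1.38. Without MS_E replicate 2 the value was 1.38, with an unadjusted p of 0.0253 in edgeR, past the thresholds of the study, in a fit that called 8.36% of tested miRNAs. MS_E was then a single library, the one with 51.8% of its reads on miR-10b-5p, assumed to vary like the other groups. Against CIA_B the fold changes of miR-378a-5p were -0.45 (SE 0.42) in MS_E and 0.46 (SE 0.42) in MS_A. Leaving out 1 library gave -0.92 (MS_E replicate 2) to -0.14 (MS_E replicate 1) for the former, and 0.19 (CIA_B replicate 2) to 0.69 (CIA_B replicate 1) for the latter. Without CIA_B replicates 1 and 2 in turn the former was -0.21 and -0.72, and it was -0.20 by library total alone.

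The 2 strands of miR-378a kept a ratio that followed the miR-1-3p split. The 3p to 5p ratio of counts was 84.0 and 193 for CIA_B replicates 1 and 2. MS_E had ratios of 178 and 137, PLA_E of 123 and 237, MS_A of 171 and 107, and PLA_A of 88.5 and 242. It was 84.0 to 137 in the 5 libraries with more miR-1-3p and 171 to 242 in the other 5, without overlap, as for 24.5% of the 94 hairpins (23 of them). The highest ratio exceeded the lowest 2.89-fold, a spread that ranked 72 among these hairpins.

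In the formal comparisons, 0 of the 6 members were called by edgeR, taking as called a miRNA that changed over 2-fold with an unadjusted p below 0.05, as the study did. The background of all 359 tested miRNAs was 6.41% in MS_E, 0.557% in PLA_E, 1.11% in MS_A and 6.96% in PLA_A against CIA_B, and 4.18% with the 4 groups after therapy averaged. It was 3.9% for MS_E against PLA_E, 1.95% for MS_A against PLA_A and 3.34% for MS against PLA over both times. Between times it was 3.9% for MS_A against MS_E, 2.79% for PLA_A against PLA_E and 4.74% over both arms, and it was 3.34% for the interaction of arm and time. Also 0 members had an unadjusted p under 0.05 in any of the 12 comparisons with edgeR or DESeq2, and 1 did with limma-voom, which called 0. In the test over all 5 groups the unadjusted p of the members ran from 0.320 for miR-378a-5p to 0.691 for miR-378a-3p in edgeR, with 4.18% of tested miRNAs under 0.05.

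By adjusted p under 0.05, 0 of the 359 miRNAs were called in each comparison with edgeR. Of the 72 fitted log2 fold changes of the members, 21 were at least as large as their SE, and the sizes of the other 51 are not read here as changes. The SE of miR-193-3p against CIA_B, from 1.93 to 2.14 on the log2 scale, leaves room for a large rise as well as for none. A p that misses the threshold does not show that the groups were alike.

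**Figure D3:**
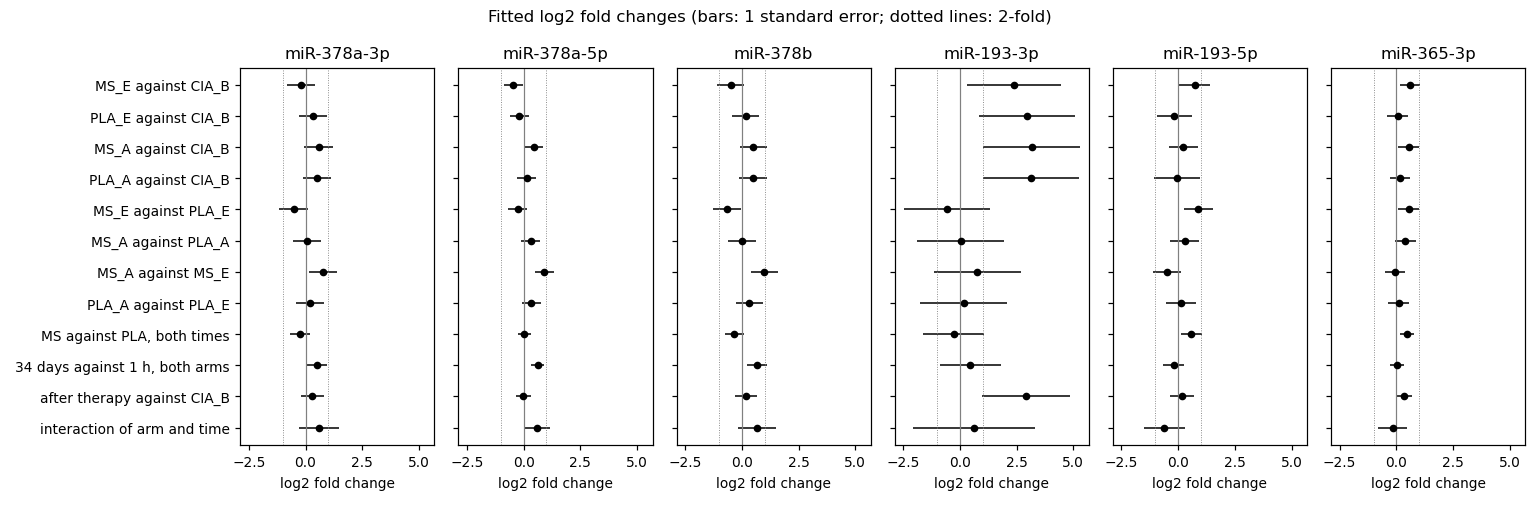
Fitted log2 fold changes of the 6 members (horizontal axes) in the 12 comparisons (rows), with bars of 1 SE and dotted lines at 2-fold. Bars of miR-193-3p against CIA_B, with an SE of 1.93 to 2.14, are far wider than those of the other members, and 0 of the 72 values passed the thresholds.

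For each member the 3 miRNAs of other hairpins with the most similar course over the 10 libraries were sought by the Pearson correlation of log2(cpm + 1), given as a description without a test, since all points share the depth and tissue makeup of a library. Most like miR-193-3p were miR-872-3p (0.96), let-7b-5p (0.93) and miR-138-5p (0.93). Levels of miR-872-3p were 44.1 to 153 cpm in the libraries with more miR-1-3p and 17.1 to 28.7 cpm in the others, and those of let-7b-5p were 1117 to 1900 and 704 to 957 cpm, both without overlap. By library total alone miR-872-3p still did not overlap, but let-7b-5p did, at 852 to 2549 cpm against 582 to 1019 cpm, and was higher with more miR-1-3p in 4 of 5 groups. Like miR-193-3p, miR-138-5p was high in the same 4 libraries after therapy, at 28.1 to 63.3 cpm, but in CIA_B it was higher in replicate 2, with 11.9 cpm against 5.19 cpm.

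The other members had other neighbours. Beside miR-378b, miR-378a-3p was most like miR-1839-5p (0.93) and miR-504 (0.87), and miR-378b was most like miR-1839-5p (0.90) and miR-22-3p (0.89) beside miR-378a-3p. The 5p strand, miR-378a-5p, was most like miR-26b-5p (0.88), miR-126a-5p (0.87) and miR-126a-3p (0.86), of which the miR-126a strands are known from endothelial cells. Nearest to miR-365-3p were miR-30d-5p (0.87), miR-1843-3p (0.73) and miR-154-5p (0.71), and nearest to miR-193-5p were miR-500-3p (0.84), miR-370-3p (0.82) and miR-379-5p (0.81). With miR-193-3p, miR-378a-3p correlated at -0.46 and miR-378b at -0.47.

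**Figure D4:**
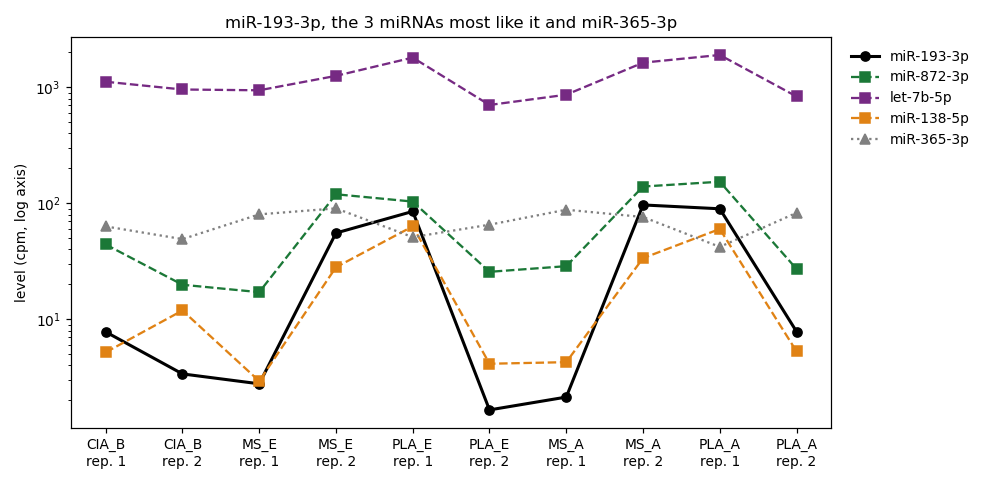
Levels in cpm (vertical log axis) of miR-193-3p, of the 3 miRNAs with the highest correlation with it and of miR-365-3p in each of the 10 libraries (horizontal axis). The lines join libraries only to guide the eye. The same 4 libraries stand out for miR-193-3p, at 55.4 to 96.8 cpm, and for miR-138-5p, at 28.1 to 63.3 cpm, while miR-365-3p stays between 42.1 and 90.4 cpm.

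Other miRNAs of fat and energy metabolism, in lists put together with earlier results of these data known, also showed few changes by the same thresholds. Of the miRNAs within Srebf2 and the Pank genes, such as miR-33 and miR-103, 4 of 7 were tested and 0 passed in any comparison, with a median log2 fold change of 0.36 after therapy against CIA_B. By group this median was -0.28 in MS_E, 0.28 in PLA_E, 0.31 in MS_A and 0.84 in PLA_A. Of the miRNAs described as promoting brown fat, 10 of 10 were tested and 0 passed, and their median log2 fold change after therapy against CIA_B was 0.14, beside 0.04 over all tested miRNAs. Of the 8 described as restraining it, 7 were tested, and 1 rose after therapy, miR-34a-5p, by 1.54 (SE 0.66) on the log2 scale, in a comparison that called 4.18% of all tested miRNAs. That list holds miR-133a-3p and miR-133b-3p, which are also muscle markers, and its median after therapy was 0.24.

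The list for white fat differentiation had 7 of 8 names tested, with a median log2 fold change of 0.14 after therapy. In it miR-20a-5p, of the miR-17 to 92 cluster, rose against CIA_B in MS_E by 1.88 (SE 0.53), in PLA_A by 1.45 (SE 0.52) and after therapy on average by 1.33 (SE 0.45) on the log2 scale. Another of its members, miR-21-5p, known from inflammation and wound repair, rose in PLA_A by 1.40 (SE 0.54). Thus 1 of 7 passed in MS_E and 2 of 7 in PLA_A, where 6.41% and 6.96% of all tested miRNAs passed. Markers of other cells passed in the same comparisons, and their part in these values was not tested. In MS_E 4 of 6 tested epithelial, 1 of 5 leukocyte and 1 of 3 erythroid markers were higher and 2 of 2 slow-fibre markers lower than in CIA_B, and in PLA_A 3 of 5 leukocyte and 2 of 3 erythroid markers were higher. With the groups after therapy averaged, the comparison in which miR-34a-5p and miR-20a-5p also passed, 2 of 5 leukocyte and 2 of 6 epithelial markers were higher and 2 of 2 slow-fibre markers lower. The summed epithelial markers stood apart in MS_E replicate 1, at 447 cpm against 119 cpm in replicate 2 and 33.8 to 135 cpm over the 9 other libraries. No miRNA of these 4 lists fell by the thresholds, and none of them passed an adjusted p under 0.05 in edgeR.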

How the data were processed

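Small RNA of 10 libraries, 2 per group, was measured by sequencing. The authors prepared libraries with the TruSeq small RNA kit, removed adapters, discarded reads under 18 bases, aligned the rest to rn4 and miRBase and quantified them with miRDeep2. They deposited raw read counts per mature miRNA and precursor. The processing notes of the submitters also name CASAVA 1.8 and Bowtie. For 34 miRNAs with several precursors the largest count was used. A further table was left out, because the names of its 20 value columns fit none of the labels.

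The deposited counts were scaled with TMM factors and tested with the quasi-likelihood method of edgeR 4.0.16 (R 4.3.3, prior count 2) for miRNAs with at least 1 cpm in 5 libraries, with all 10 libraries in 1 fit, in place of the limma-voom pipeline of the study. The SE is the size of the log2 fold change divided by the square root of F. The p-values were adjusted by the Benjamini-Hochberg method over the 359 tested miRNAs. Pseudocounts of 1 cpm were used for correlations. A floor of 3 counts allows for counting error alone, as reads are not molecules.

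Named miRNAs were all rows with the 3 family names, the 3 most similar miRNAs of each, markers and list members past the thresholds. Some that set 1 library apart were named after the data were seen. The families and lists were chosen with earlier results of these data known. Marker lists of muscle (4 names), slow fibres (2), leukocytes (6), epithelium (7), erythroid cells (4) and liver (1) were summed, and of the names in all lists miR-155-5p, miR-148a-3p and miR-486 were not found. Alternatives were DESeq2 1.42.0, limma-voom (limma 3.58.1), DESeq2 size factors, scaling by library size only, a mean of 100 counts or no filter, only the groups compared, summed counts, a term for the miR-1-3p split, a replicate block and each library left out. The fit was tested on simulated data. Duplicates were looked for, but counts within a group differed by much more than sampling noise (chi-square of 1562 to 7794 per degree of freedom). With 2 libraries a group, no permutation test of single values was made. Sequences and positions are from RefSeq (GRCr8). Python 3.11.15, pandas 2.3.3 and matplotlib 3.10.9 made tables and figures.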

Additional observations from a re-analysis of the deposited data

Results flagged for a closer look

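One value was noted in data that the comparisons did not use. The strand miR-365-5p, left out for its low level, had 4 counts in PLA_A replicate 1, against 0 and 1 in the CIA_B libraries. This is 0.996 cpm, above the 0.747 cpm that 3 counts amount to in that library. It is below the 2.60 cpm of 3 counts in CIA_B replicate 1, so a difference from that library was not detectable at this depth.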

How the results depend on the processing

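The count of members past the thresholds stayed at 0 in every comparison and alternative but 4, where it was 1. With only the groups compared in the fit, miR-193-3p was called against CIA_B in PLA_E and in PLA_A, in fits that called 1.67% and 7.52% of all tested miRNAs. With a library left out, the count was 0 to 1 in MS_E against CIA_B (miR-193-5p, without CIA_B replicate 1) and in MS_A against MS_E (miR-378a-5p, without MS_E replicate 2), in fits that called 5.01% and 8.36% and left 1 library in that group. The lowest adjusted p of a member in any alternative, over fits of edgeR, DESeq2 and limma-voom, was 0.340. Of the 21 log2 fold changes at least as large as their SE, 0 changed sign under the other alternatives and 6 did with a library left out. These 6 ranged from -0.81 to 3.28 (MS_E), -1.46 to 3.97 (PLA_E) and -1.19 to 4.17 (MS_A) for miR-193-3p against CIA_B, from -0.091 to 1.69 for miR-193-5p in MS_E against CIA_B, from -0.044 to 0.79 for miR-378a-3p in 34 days against 1 h, and from -1.15 to 0.084 for miR-378b in MS_E against PLA_E. Fewer libraries per group are part of these alternatives, and the cause was not tested further. Whether the replicate numbers pair the libraries could not be decided. Deviations of equal numbers correlated from -0.55 to 0.63, and the sign followed the miR-1-3p split. It was positive where the library with more miR-1-3p had the same number in both groups, and negative elsewhere. With the replicate block the count of members past the thresholds stayed at 0 in all 12 comparisons, and miR-193-3p after therapy against CIA_B was 2.94. The filter at a mean of 100 counts removed miR-193-5p, and comparisons over all 5 groups have no fit on fewer groups. Depth limits miR-193-5p and the low libraries of miR-193-3p most, with as few as 6 counts.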
